A study of Mus musculus with 38 samples.

Results

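The 43 genes described here are mouse genes of glycolysis and of the cellular response to low oxygen, and their transcripts were followed in T helper 17 (Th17) cells, the interleukin-17-producing CD4+ T cells that drive experimental autoimmune encephalomyelitis (EAE). The genes were chosen by symbol for their known roles, with earlier results of these data known, and every symbol was found among the 31053 gene symbols of the 4 deposited count tables. They form a glycolysis group of 22 genes (glucose and lactate transporters, the enzymes of the pathway and its regulators) and a group of 21 genes made up of Hif1a and targets of hypoxia-inducible factor (HIF). Glycolysis turns glucose into pyruvate and then lactate, and activated T cells are known to run it even when oxygen is plentiful. The factor HIF1α is made continuously, is marked for destruction by oxygen-dependent prolyl hydroxylases, and, when it persists, binds DNA and raises transcription of most glycolytic genes as well as genes of mitophagy, collagen folding and blood vessel growth. In Th17 cells HIF1α is known to promote both glycolysis and the Th17 programme.

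Libraries were made from 2,000 sorted cells each with a modified SMART-Seq2 protocol, in which whole transcriptomes are amplified by PCR and no molecular identifiers are counted. In vitro, naive T cells of IL-23R knockout (KO) and wild-type (WT) C57/B6 mice were differentiated into inflammatory Th17 cells (Th17Inf) and kept with the synthetic glucocorticoid dexamethasone (Dex) or without it for 2 days. There were 4 libraries each of KO Dex, KO control, WT Dex and WT control cells; the KO libraries are numbered 5 to 8 and the WT libraries 1 to 4. In vivo, 2D2+ T cells, which carry a transgenic receptor for a myelin antigen, were differentiated into Th17Inf cells, transferred into WT recipients and recovered at the peak of EAE. Cells with a conditional knockout (cKO) of Chd1, a chromatin remodeller, came from the central nervous system (CNS, 4 libraries) and draining lymph node (dLN, 4 libraries), beside 3 libraries of Chd1 WT cells from each tissue. Cells with a cKO of the glucocorticoid receptor (GR, gene Nr3c1) came from the CNS (4 libraries), beside 4 GR WT libraries. The Cre driver of the cKO strains is not given in the labels, and it is not stated whether libraries of a group came from separate animals or cultures, so the p-values below measure the spread between these libraries, which may be technical. Total counts per library ran from 3320586 to 4732419 in vitro, from 4911109 to 6262849 in the Chd1 CNS set, from 3148634 to 5158450 in the Chd1 dLN set and from 6281769 to 9159671 in the GR set.

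Levels are given as scaled CPM, that is, CPM (counts relative to the library total) with the total scaled by the TMM method. A gene was called higher or lower where edgeR's quasi-likelihood test gave a Benjamini-Hochberg adjusted p under 0.05 over all genes tested in that comparison. Of the targeted genes, Nr3c1 lay between 5.2 and 6.12 scaled CPM in GR cKO libraries and between 11.5 and 17.2 in GR WT libraries. The ranges did not overlap, but the fitted difference of -1.30 ± 0.16 on the log2 scale was not called (edgeR adjusted p = 0.11). Chd1 overlapped between genotypes in the CNS, at 3.46 to 6.4 scaled CPM in cKO and 5.06 to 6.11 in WT libraries. Il23r was detected in KO cells, at 2.14 to 5.28 scaled CPM in KO control and 5.79 to 8.03 in WT control libraries, ranges that were close and did not overlap. The deleted part of each gene is not given in the labels, so neither Chd1 nor Il23r checks the genotype labels.

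The promoters of 6 HIF group members with large differences in the comparisons below are shown first, because HIF binds DNA at a short core motif. They are RefSeq sequences of assembly GRCm38.p6, read 5′ to 3′ on the gene's strand from 250 bases before to 50 bases after the annotated start. Capitals mark matches of ACGTG or GCGTG on either strand (CACGT or CACGC when read on the opposite one), with overlapping matches counted separately. Ankrd37, a HIF-induced ankyrin repeat protein, lies on the minus strand at chr8:45999801-46000100 and its window held 4 matches. Kdm3a, a histone H3 lysine demethylase, lies on the minus strand at chr6:71632868-71633167 and its window held 1. P4ha1, a subunit of collagen prolyl hydroxylase, lies on the plus strand at chr10:59323046-59323345, with 3 matches. Ak4, a mitochondrial adenylate kinase, lies on the plus strand at chr4:101419039-101419338, with 2 matches. Gbe1, the glycogen branching enzyme, on the plus strand at chr16:70313699-70313998, and Vegfa, the vascular growth factor, on the minus strand at chr17:46032328-46032627, had no match in these windows.
Ankrd37: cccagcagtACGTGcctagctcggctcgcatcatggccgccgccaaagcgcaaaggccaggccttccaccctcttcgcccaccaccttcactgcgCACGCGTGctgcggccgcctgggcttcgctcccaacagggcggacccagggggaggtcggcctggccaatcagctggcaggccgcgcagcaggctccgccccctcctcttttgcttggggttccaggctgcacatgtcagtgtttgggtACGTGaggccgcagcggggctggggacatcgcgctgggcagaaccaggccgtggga
Kdm3a: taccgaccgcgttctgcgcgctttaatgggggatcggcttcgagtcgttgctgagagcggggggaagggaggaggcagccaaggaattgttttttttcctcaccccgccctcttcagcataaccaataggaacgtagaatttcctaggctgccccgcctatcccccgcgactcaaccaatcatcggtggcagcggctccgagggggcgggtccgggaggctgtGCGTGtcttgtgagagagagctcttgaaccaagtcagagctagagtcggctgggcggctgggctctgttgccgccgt
P4ha1: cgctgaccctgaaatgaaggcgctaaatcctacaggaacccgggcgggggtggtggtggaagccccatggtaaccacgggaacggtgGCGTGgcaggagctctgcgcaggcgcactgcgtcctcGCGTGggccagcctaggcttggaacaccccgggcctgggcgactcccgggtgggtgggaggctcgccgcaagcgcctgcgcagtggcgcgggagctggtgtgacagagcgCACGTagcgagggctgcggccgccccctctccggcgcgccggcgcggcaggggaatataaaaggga
Ak4: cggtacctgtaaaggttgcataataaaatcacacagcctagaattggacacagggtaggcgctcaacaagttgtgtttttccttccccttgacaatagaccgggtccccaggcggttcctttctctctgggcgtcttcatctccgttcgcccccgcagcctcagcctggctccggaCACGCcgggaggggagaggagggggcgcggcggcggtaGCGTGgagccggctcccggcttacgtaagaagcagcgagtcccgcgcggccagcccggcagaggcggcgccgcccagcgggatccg
Gbe1: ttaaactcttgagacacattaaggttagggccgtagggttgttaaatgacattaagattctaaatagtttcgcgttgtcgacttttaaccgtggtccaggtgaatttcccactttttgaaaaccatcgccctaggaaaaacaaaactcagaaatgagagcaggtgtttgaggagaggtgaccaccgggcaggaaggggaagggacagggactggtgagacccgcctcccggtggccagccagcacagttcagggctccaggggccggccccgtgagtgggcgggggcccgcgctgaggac
Vegfa: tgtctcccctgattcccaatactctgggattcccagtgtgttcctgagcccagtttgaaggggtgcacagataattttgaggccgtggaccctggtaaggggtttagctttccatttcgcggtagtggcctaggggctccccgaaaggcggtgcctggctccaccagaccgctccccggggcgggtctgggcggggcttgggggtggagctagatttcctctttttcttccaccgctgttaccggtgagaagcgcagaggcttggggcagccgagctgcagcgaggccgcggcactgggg

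Among the 38 members with a promoter in the RefSeq table, 30 (78.9%) held at least 1 match, as did 11836 of all 27025 promoters of the same length (43.8%). The shares were 76.2% in the glycolysis group (16 of 21) and 82.4% in the HIF group (14 of 17). The members' windows were also richer in G and C, with a median GC content of 64.5% against 52.7% over all promoters, and no account was taken of this in the shares. Ldha had the most matches among the members, with 7, and Fam162a and Wsb1 had 6 each. Ldha and Wsb1 hold stretches of CACGTG, which match on both strands and were counted for each, and Fam162a holds none. This order thus depends on counting overlapping matches separately. A match is a run of letters and not a measured binding site. Slc2a3, Bnip3l, Ndrg1, Ero1l and Plod2 had no entry.

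Levels between genes were set per kilobase of exon, with all annotated exons of a gene joined. This length was 850 bases for Fam162a, 2911 for Aldoa, 3310 for Ldha and 4133 for Gapdh. It can exceed the length of the transcript made, and the order between genes depends on it. On this scale Gapdh had the highest level of the 43 genes in every group. In KO Dex cells its mean level was 4260 scaled CPM per kb, followed by Fam162a at 2386, Aldoa at 2146 and Ldha at 1642 on the same scale. In KO control cells the same 4 genes led, with Gapdh at 2145, Fam162a at 1449, Ldha at 1268 and Aldoa at 938 scaled CPM per kb. In vivo, Gapdh stood at 889 scaled CPM per kb in Chd1 WT CNS cells and 364 in Chd1 WT dLN cells. Each of these values is on the scaling of its own tissue's set, so they do not measure the difference between tissues. Vegfa, Plod2, Pfkfb4 and Mxi1 were the lowest in vitro. The counts of several members are uncertain: the symbol Aldoa covers 2 annotated genes, and Slc2a1, Hk1, Gpi1, Pfkp, Pfkm, Aldoa, Tpi1, Gapdh, Higd1a, Ndrg1, Bnip3, Fam162a, Plod2, Ankrd37, Mxi1 and Hif1a share exon bases with a gene on the opposite strand, whose reads cannot be told apart here because the strand setting of the counting is not given. Most exposed were Pfkm, at a mean of 12.7 CPM without TMM over all libraries beside 16.4 for its partner Senp1, Mxi1, at 8.3 beside 7.44 for Gm10197, and Ankrd37, at 52.5 beside 38.3 for Ufsp2.

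By the number of genes called, the largest response was to Dex in IL-23R KO cells. There 42 of the 43 rose relative to KO control cells: all 21 genes of the HIF group and 21 of the 22 of the glycolysis group, Slc16a1 being the exception and the rises of Ldha and Hif1a holding only on the TMM scale. In the same comparison 54.7% of the 10813 genes tested were called, 27.3% higher and 27.4% lower. The median log2 fold change was 1.57 in the HIF group, 0.96 in the glycolysis group and 0.01 over all genes tested. The summed level of the HIF group averaged 10508 scaled CPM in KO Dex and 4186 in KO control cells, a ratio of 2.51, and that of the glycolysis group 51026 in KO Dex and 27242 in KO control cells, a ratio of 1.87. For 41 of the 43 genes each of the 4 KO Dex libraries lay above each of the other 12 in vitro libraries, and for 32 without TMM. Of all 10813 genes tested, 15.7% lay above in this way, and 6.71% without TMM.

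Among the transporters, the glucose carrier Slc2a1 had 85.4, 109, 110.1 and 104 scaled CPM in KO Dex libraries, against 48.3, 49.5, 36.2 and 41.9 in KO control libraries. All 4 KO Dex values were above every KO control value, and the log2 fold change was 1.21 ± 0.11 (SE; edgeR adjusted p = 1.1e-07). The second glucose carrier, Slc2a3, rose by a log2 fold change of 1.14 ± 0.15, and Slc16a3, which exports lactate, by 0.57 ± 0.09. The other lactate carrier, Slc16a1, had 16.2, 15.7, 11.9 and 11.4 scaled CPM in KO Dex libraries and 17.7, 17.2, 13.7 and 16.7 in KO control libraries. These ranges overlapped, with a log2 fold change of -0.25 ± 0.14 and an edgeR adjusted p of 0.13. As a share of the summed per-kilobase level of both lactate carriers, Slc16a3 took 95.2% in KO Dex and 91.9% in KO control cells, with a two-sided exact permutation p of 0.0286, the smallest that 4 libraries against 4 allow, and 0.143 after adjustment over 15 such tests.

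All 15 enzymes of the pathway rose in KO Dex cells, with log2 fold changes between 0.37 and 1.71 and a median of 0.92. Hk2, the inducible hexokinase that traps glucose in the cell, had 87.8, 141, 89.8 and 88.7 scaled CPM in KO Dex libraries, against 45.3, 49.3, 38.3 and 48.3 in KO control libraries. KO Dex library 6 stood above its 3 partners, yet even the lowest KO Dex value exceeded every KO control value (log2 fold change 1.16 ± 0.17, edgeR adjusted p = 2.2e-05). The constitutive hexokinase Hk1 rose by a nearly equal log2 fold change of 1.15 ± 0.07. The Hk2 share of the per-kilobase level of both was 46.6% in KO Dex and 46.7% in KO control cells. Gapdh, which makes the first NADH of the pathway, had 18276, 16467, 17309 and 18368 scaled CPM in KO Dex libraries and 9500.0, 8035, 9552 and 8367 in KO control libraries, with no overlap and a log2 fold change of 0.99 ± 0.07 (edgeR adjusted p = 7.8e-09).

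Ldha, which reduces pyruvate to lactate, changed least among the enzymes. It had 5348, 5416, 5218 and 5761 scaled CPM in KO Dex libraries and 4234, 4322, 3949 and 4282 in KO control libraries. The ranges were separate and close, and the log2 fold change was 0.37 ± 0.04 (edgeR adjusted p = 2.3e-06). The direction of this small difference, and that of Hif1a, rests on the scaling: without TMM every log2 fold change of this comparison shifts by -0.46, which leaves 40 of the 43 genes higher but turns Ldha and Hif1a to lower. Between these extremes, Aldoa, which splits fructose bisphosphate, rose by 1.19 ± 0.08 on the log2 scale, and Pkm, which makes pyruvate and ATP, by 1.03 ± 0.05. The remaining enzymes that rose were Gpi1, at the top of the range, and Pfkl, Pfkp, Pfkm, Aldoc, Tpi1, Pgk1, Pgam1 and Eno1.

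The 3 regulators rose more than most enzymes. Pfkfb3, whose product is the main allosteric activator of phosphofructokinase, had 69.7, 73.1, 80.1 and 83.4 scaled CPM in KO Dex libraries and 18.9, 18.2, 20.9 and 16.1 in KO control libraries. Each KO Dex value was above every KO control value (2.05 ± 0.12 on the log2 scale, edgeR adjusted p = 7.2e-10). Its relative Pfkfb4 rose by a log2 fold change of 1.21 ± 0.22. Pdk1, the kinase that switches off pyruvate dehydrogenase and so keeps pyruvate out of mitochondria, had 198, 216, 236 and 245 scaled CPM in KO Dex libraries, against 90.3, 63.4, 104 and 86 in KO control libraries. The groups did not overlap, and the log2 fold change was 1.39 ± 0.12 (edgeR adjusted p = 4.6e-08).

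In the HIF group the transcription factor itself moved little while its targets moved a great deal. Hif1a had 325, 334, 312 and 328 scaled CPM in KO Dex libraries, 265, 286, 293 and 270.2 in KO control libraries, 339.8, 339, 346 and 320.3 in WT Dex libraries and 289, 284, 279.7 and 263 in WT control libraries. Both Dex groups lay above both control groups, with log2 fold changes of 0.22 ± 0.05 in KO cells (edgeR adjusted p = 0.0025) and 0.27 ± 0.05 in WT cells (edgeR adjusted p = 0.0048). The one in KO cells turns to lower without TMM, as given above, and its call was lost without the filter on low counts (edgeR adjusted p = 0.064). The oxygen sensor Egln3, a prolyl hydroxylase that is itself a HIF target, had 459, 500.3, 459 and 561 scaled CPM in KO Dex and 203, 129.9, 205 and 149.9 in KO control libraries. The KO Dex values were all higher, by a log2 fold change of 1.53 ± 0.13 (edgeR adjusted p = 3.8e-08), and its paralogue Egln1 rose by 1.52 ± 0.13.

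The 5 genes of mitochondrial proteins rose in KO Dex cells, by log2 fold changes of 0.72 to 1.43. Bnip3, a receptor that sends mitochondria to autophagy, had 796, 843, 809 and 844 scaled CPM in KO Dex libraries and 368, 233, 339 and 294 in KO control libraries. The groups were well apart, with a log2 fold change of 1.42 ± 0.12 (edgeR adjusted p = 3.1e-08). Higd1a, a respiratory chain assembly factor, rose by 1.43 ± 0.08, the second mitophagy receptor Bnip3l by 1.21 ± 0.16, Ak4 by 1.12 ± 0.13 and Fam162a by 0.72 ± 0.08.

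All 4 genes of protein and collagen folding rose. Plod2, a lysyl hydroxylase needed for collagen cross-links, had 46, 35.9, 44.5 and 35.9 scaled CPM in KO Dex libraries and 7.93, 7.24, 6.43 and 3.22 in KO control libraries. The lowest KO Dex value was several times the highest KO control value (2.72 ± 0.21 on the log2 scale, edgeR adjusted p = 2.1e-08). P4ha1 rose by a log2 fold change of 1.76 ± 0.10, its paralogue P4ha2 by 1.58 ± 0.12 and Ero1l, the oxidase that forms disulfide bonds in the endoplasmic reticulum, by 1.64 ± 0.14.

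The largest rise of any member was that of Ndrg1, a stress-response gene long used as a hypoxia marker. It had 785, 896, 820.0 and 919 scaled CPM in KO Dex libraries and 123, 73.2, 129.9 and 94 in KO control libraries, a log2 fold change of 3.03 ± 0.16 (edgeR adjusted p = 2.8e-10). Ankrd37 had 351, 265, 284 and 309 scaled CPM in KO Dex libraries and 63, 30.9, 60.5 and 28.2 in KO control libraries (2.74 ± 0.22, edgeR adjusted p = 2.7e-08). Both genes were far above their KO control range in every KO Dex library. Within KO control cells libraries 5 and 7 were above libraries 6 and 8 for both, as for 14 of 22 glycolysis and 15 of 21 HIF genes. The share over all genes was not counted. Over all genes with enough counts the chi-square per degree of freedom was 3.74 between KO control libraries 6 and 8. It was 4.44 between 5 and 7, and 12.9 to 20.1 in the other pairs of that group. The cause was not tested. Kdm3a had 96.5, 104, 108 and 105 scaled CPM in KO Dex libraries and 18.9, 21.1, 28.4 and 14.6 in KO control libraries (2.33 ± 0.17, edgeR adjusted p = 7.6e-09).

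Gbe1 had 157, 139, 158 and 148 scaled CPM in KO Dex libraries and 43.6, 19, 46.3 and 27.3 in KO control libraries (2.16 ± 0.20, edgeR adjusted p = 1.5e-07). Hilpda, which blocks the breakdown of lipid droplets, rose by 1.57 ± 0.13. Both genes of glycogen and lipid stores were thus called, and the KO Dex and KO control values of Gbe1 did not overlap. Vegfa was near the detection limit, at 3.91, 4.1, 3.11 and 4.25 scaled CPM in KO Dex libraries and 0.70, 0.78, 0.80 and 1.14 in KO control libraries, and its log2 fold change of 2.11 ± 0.71 had the widest error of the 43 (edgeR adjusted p = 0.019). Narf, Mxi1, an antagonist of Myc, and Wsb1, a ubiquitin ligase subunit, rose by 1.86 ± 0.15, 1.37 ± 0.17 and 0.79 ± 0.09 in that order, Mxi1 with the uncertain count given above.

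**Figure D1:**
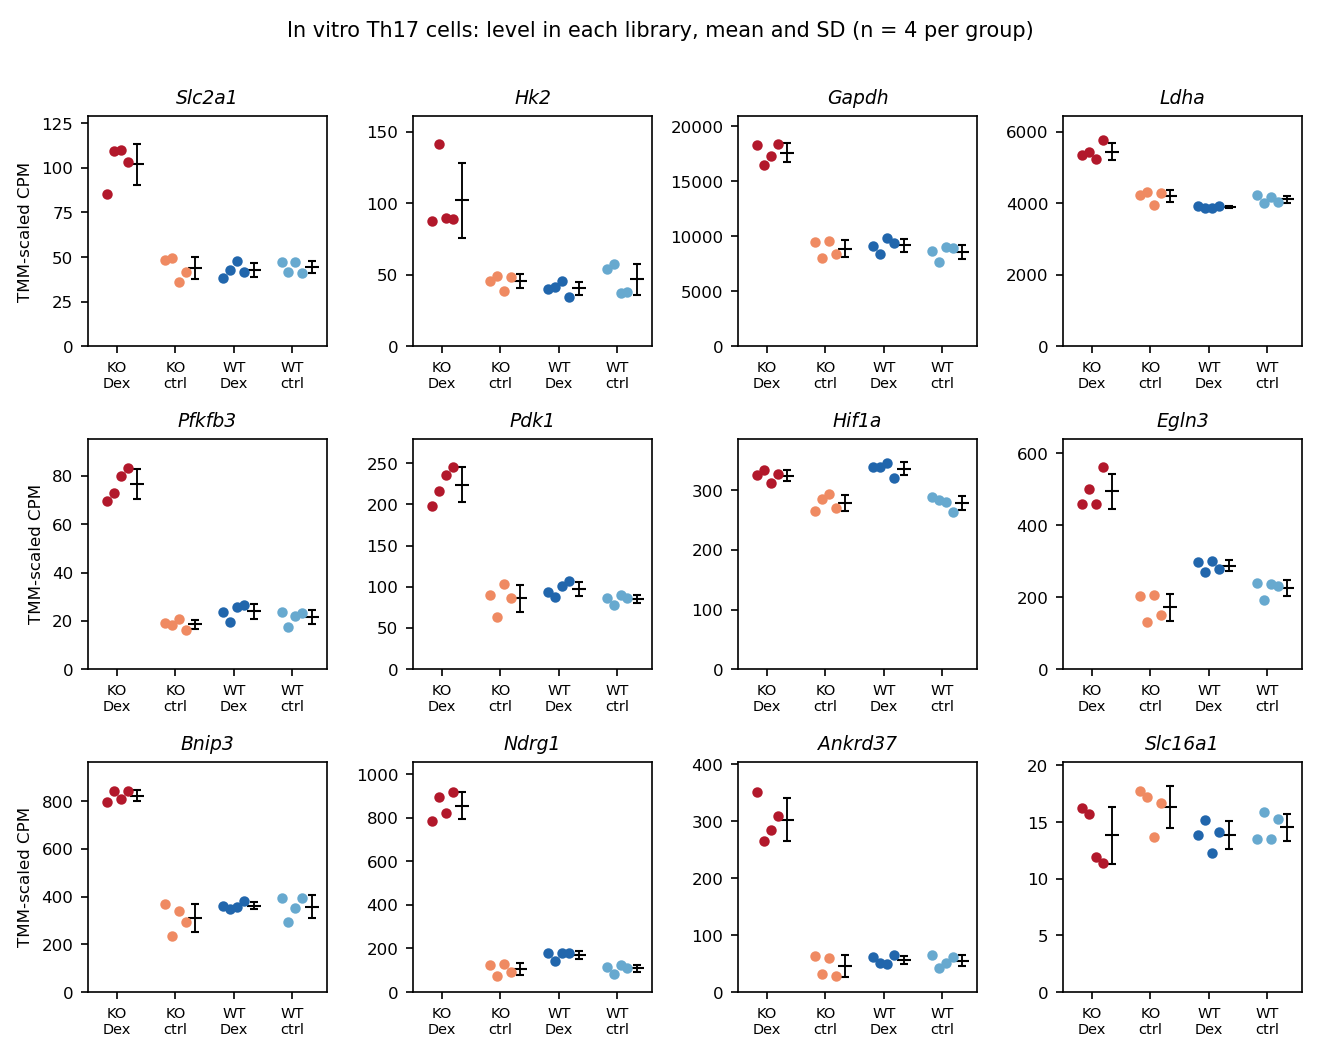
Levels of 12 of the 43 genes in the in vitro libraries, in scaled CPM on axes that start at 0. Points are libraries, and the mark with a bar beside them is the group mean with its SD; the groups run KO Dex, KO control, WT Dex and WT control from left to right. In 11 panels the KO Dex points lie above the KO control points, as for Ndrg1, although Ldha and Hif1a turn to lower without TMM, and in the Slc16a1 panel the groups overlap.

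In WT cells the same treatment called 3 of the 43 genes, while 8.08% of the 10813 genes tested were called, 3.88% higher and 4.2% lower. Ndrg1 had 179, 140.2, 179.6 and 178 scaled CPM in WT Dex libraries and 117, 82.7, 122 and 111 in WT control libraries. It rose by a log2 fold change of 0.64 ± 0.15 (edgeR adjusted p = 0.014), and that call was lost without WT control replicate 2, with an edgeR adjusted p of 0.056. Hif1a also rose, with the values above. Higd1a had 482, 492, 512 and 528 scaled CPM in WT Dex libraries and 626, 561, 604 and 616 in WT control libraries and fell by 0.26 on the log2 scale (edgeR adjusted p = 0.049). The Higd1a call was lost in each of the 8 fits that left out 1 of these libraries (edgeR adjusted p = 0.057 to 0.12). The median log2 fold change was 0.05 in the glycolysis group, 0.16 in the HIF group and 0.01 over all genes tested.

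The difference between the Dex effects in KO and WT cells was tested as an interaction. It was higher in KO cells for 39 of the 43 genes, 20 of the glycolysis group and 19 of the HIF group, while 32.2% of all genes tested were called, 15% in that direction and 17.2% in the other. The median interaction was 0.89 in the glycolysis group, 1.52 in the HIF group and -0.01 over all genes tested, on the log2 scale. Ankrd37 had the largest, at 2.72 ± 0.31 (edgeR adjusted p = 7.6e-06), followed by Ndrg1 at 2.39 ± 0.22 and Plod2 at 2.34 ± 0.33. Ero1l had 1083, 1171, 1118 and 1143 scaled CPM in KO Dex, 477, 267, 392 and 316 in KO control, 339, 272, 327 and 332 in WT Dex and 429.8, 345, 431 and 417 in WT control libraries. It was high in KO Dex libraries only, and its interaction was 1.99 ± 0.19 (edgeR adjusted p = 1.4e-06).

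The interaction of Pfkfb3 was 1.92 ± 0.17, that of Bnip3 1.40 ± 0.16, that of Hk2 1.37 ± 0.24, that of Slc2a1 1.27 ± 0.16 and that of Ldha 0.45 ± 0.06. The 4 genes without a called interaction were Slc16a1, Hif1a at -0.05 ± 0.08 (edgeR adjusted p = 0.66), Pfkfb4 at 0.79 ± 0.31 (0.064) and Vegfa at 1.85 ± 1.08 (0.21). Among the 39, the calls of Pfkm and Aldoc were lost in several fits that left out 1 library, as without WT control replicate 4 (edgeR adjusted p = 0.088 for Pfkm and 0.062 for Aldoc).

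**Figure D2:**
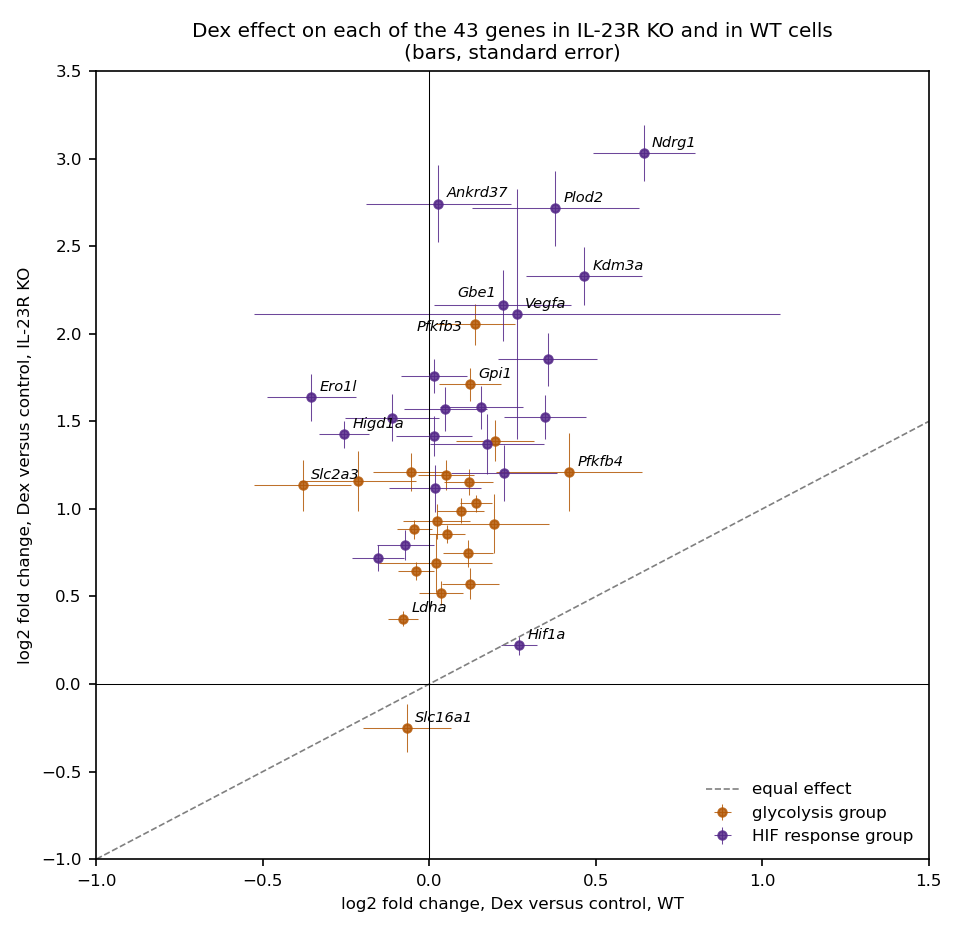
Log2 fold change of each of the 43 genes with Dex in IL-23R KO cells (vertical axis) and in WT cells (horizontal axis), with standard errors as bars and the glycolysis and HIF groups in different colours. The dashed line marks an equal effect. Only Hif1a and Slc16a1 lie near it, and Ndrg1, Ankrd37 and Plod2 lie highest.

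Set directly against WT Dex cells, which use the same KO Dex libraries again, KO Dex cells had 41 of the 43 genes higher, with 45.9% of all genes tested called, 22.2% higher and 23.7% lower. The 2 others were Slc16a1 and Hif1a, with log2 fold changes of -0.01 and -0.05. The call of Vegfa was lost in each fit that left out 1 of these libraries except WT Dex replicate 1 (edgeR adjusted p = 0.063 to 0.103). That of Pfkfb4 was lost without WT Dex replicate 2 or 3 or KO Dex replicate 7 (0.076 to 0.101), and both were lost without the filter on low counts (0.058 for Vegfa and 0.065 for Pfkfb4). The summed level was 1.82 times higher for the glycolysis group and 2.37 times for the HIF group. Plod2 had 46, 35.9, 44.5 and 35.9 scaled CPM in KO Dex libraries and 4.84, 6.61, 5.21 and 8.15 in WT Dex libraries, with no overlap. Ankrd37 was higher by 2.42 ± 0.22, Ndrg1 by 2.34 ± 0.15 and Kdm3a by 2.06 ± 0.16 on the log2 scale.

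Without Dex the genotypes were close. None of the 43 genes was called between KO control and WT control cells by edgeR or by DESeq2, and 0.684% of all genes tested were called by edgeR, 0.222% higher and 0.462% lower. An unadjusted p under 0.05 was found for 3 of the 43 genes and 9.72% of all genes tested. The largest difference was that of Narf, at -0.48 ± 0.16 on the log2 scale (edgeR adjusted p = 0.28). Within each group some libraries stood lower for many of these genes at once: WT control library 2 was the lowest of its group for 18 of 22 glycolysis genes and 14 of 21 HIF genes, and KO control library 6 for 14 and 15. How often these libraries were the lowest over all genes was not counted.

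The KO Dex libraries also differed from the other 12 in composition. Mitochondrially encoded transcripts took 0.359% to 0.447% of their counts, against 1.46% to 2.26% in the other 12, and repeat and ribosomal RNA features 30.5% to 37.5%, against 13.5% to 25.4%. The summed level of T cell markers was 2861 to 3218 scaled CPM in KO Dex libraries and 3352 to 4029 in the other 12. The summed level of microglia and macrophage markers was 159 to 175 scaled CPM in KO Dex libraries and 81.8 to 116 in the other 12. In KO Dex libraries 7 of these 15 markers were detected, and Lyz2, Csf1r, C1qb, C1qc, Tyrobp, Fcer1g, Itgam and Trem2 were at 0. Th17 markers summed to 46.3 to 55.7 scaled CPM in KO Dex, 31.9 to 49.2 in KO control, 157 to 468 in WT Dex and 93.8 to 336 in WT control libraries. Nr3c1 averaged 9.45 ± 1.1 scaled CPM in KO Dex and 3.14 ± 0.45 in KO control cells (SD, n = 4 each). The part of these shifts in the results above was not tested. In bulk libraries, fewer cells of a type and less RNA per cell cannot be told apart.

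Other genes of the pathways were followed as 5 further lists, to be read against the 27.3% of all genes tested that rose and the 27.4% that fell in KO Dex against KO control cells. Of 21 further HIF targets tested, 16 rose and 1 fell, with a median log2 fold change of 1.22. Adm, the vasodilator peptide adrenomedullin, averaged 116 ± 10.8 scaled CPM in KO Dex and 3.98 ± 1.2 in KO control cells (SD, n = 4 each), a log2 fold change of 4.86 ± 0.16. Selenbp1 rose by 2.01 ± 0.17 and Rora, a nuclear receptor of the Th17 programme, by 1.81 ± 0.18. Of 10 HIF regulators tested, 6 rose and 3 fell. They included Vhl, the ubiquitin ligase subunit that recognises HIF1α (1.3 ± 0.12), and Cul2, the scaffold of the same ligase (-0.81 ± 0.13).

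In the pentose phosphate branch and in pyruvate entry into mitochondria most genes fell, beside 27.4% of all genes tested. Of 7 pentose phosphate genes tested, 6 fell and none rose in KO Dex cells, the most extreme being Taldo1, the transaldolase, which averaged 58.4 ± 6.83 scaled CPM in KO Dex and 148 ± 18 in KO control cells and fell by 1.34 on the log2 scale. G6pdx, the entry enzyme of that branch, fell by 0.38. Of 12 genes of pyruvate entry into mitochondria, 8 fell and 2 rose: Dlat and Dld, subunits of pyruvate dehydrogenase, had log2 fold changes of -1.12 ± 0.17 and -0.82 ± 0.09, while Pdk2, an inhibitory kinase of it, had 1.17 ± 0.22 and Pdpr, a regulator of its phosphatase, 1.76 ± 0.23. Among 13 further glycolysis isozymes and transporters tested, 5 rose and 3 fell, beside 27.3% and 27.4% of all genes. The interaction with genotype was called for 14 further HIF targets in the direction of a larger Dex effect in KO cells and for 1 in the opposite direction, beside 15% and 17.2% of all genes tested. It was called in the opposite direction for 4 pentose phosphate genes, and for 5 genes of pyruvate entry against 1 in the direction of a larger effect in KO cells.

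In vivo, Chd1 cKO and WT cells were each compared between CNS and dLN. CNS cells had 28 of 41 testable genes higher and 3 lower than dLN cells in the cKO, where 47.3% of the 11589 genes tested were called, 24.6% higher and 22.7% lower. In the WT, 26 were higher and 1 lower, with 16.7% of all genes called, 11.8% higher and 4.93% lower. Vegfa and P4ha2 had too few counts to test. The median log2 fold change of the glycolysis group was 1.27 in the cKO and 0.90 in the WT, that of the HIF group 0.84 in the cKO and 0.83 in the WT, and that of all genes -0.02 in the cKO and -0.01 in the WT. For the glycolysis group the cKO median lay above the 0.96 found with Dex in IL-23R KO cells. Each tissue is a table of its own, so tissue and any difference in handling between the tables cannot be told apart. Levels in these paragraphs come from a joint scaling of both tissues. The libraries also differed in composition. In the dLN, 41.8% to 59.7% of counts fell on repeats and ribosomal RNA, and in the CNS 13.1% to 32.6%. With such features left out of the fit, 28 of 40 tested members were higher and 3 lower in the cKO. In the WT, 25 of 40 were higher and 1 lower. Other effects of this gap were not tested.

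Of the enzymes, Hk2 had 22.6, 41.3, 18.4 and 16.9 scaled CPM in cKO CNS libraries and 3.64, 2.39, 1.97 and 5.17 in cKO dLN libraries. In the WT it had 16.2, 24 and 19.7 in CNS and 7.18, 5.51 and 2.89 in dLN libraries. No CNS value fell into a dLN range, and the log2 fold changes were 2.90 ± 0.37 in the cKO (edgeR adjusted p = 2.3e-05) and 1.94 ± 0.40 in the WT (0.0038). Hk1 was not called in either genotype, and the Hk2 share of the per-kilobase level of both was 56.8% ± 10.3 in cKO CNS and 13.8% ± 4.8 in cKO dLN cells (SD, n = 4 each, two-sided exact permutation p = 0.0286, 0.143 after adjustment over 15 tests). In the WT that share was 44.1% ± 4.9 in CNS and 16.6% ± 6.4 in dLN cells (SD, n = 3 each, two-sided exact permutation p = 0.1, the smallest 3 against 3 libraries allow).

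Aldoc, an aldolase best known from brain, had 18.2, 8.27, 13.5 and 17.1 scaled CPM in cKO CNS libraries and 3.38, 1.5, 1.41 and 1.72 in cKO dLN libraries. In the WT it had 16.1, 9.4 and 8.77 in CNS and 1.1, 1.3 and 0.58 in dLN libraries, and the log2 fold changes were 2.80 ± 0.35 in the cKO and 3.51 ± 0.47 in the WT. Gapdh had 3098, 3259, 2429 and 3823 scaled CPM in cKO CNS and 1011, 979, 1135 and 1532 in cKO dLN libraries, beside 2628, 3433 and 3108 in WT CNS and 1803, 1995 and 1562 in WT dLN libraries. CNS values were higher throughout for both genes, and for Gapdh the log2 fold change was 1.44 ± 0.17 in the cKO and 0.77 ± 0.19 in the WT. Tpi1, which interconverts the products of aldolase, was higher by 2.41 ± 0.20 in the cKO and 1.38 ± 0.22 in the WT. Ldha was called only in the cKO (1.15 ± 0.15, against 0.39 ± 0.17 in the WT), and the difference between these effects was not called (0.76 ± 0.22, edgeR adjusted p = 0.11). Besides these, Gpi1, Pfkl, Pfkp, Aldoa, Pgk1, Pgam1, Eno1 and Pkm were higher in CNS cells of both genotypes, and Pfkm was called in neither. The WT calls of Gapdh and Pgam1 were lost without WT CNS replicate 2 (edgeR adjusted p = 0.055 for Gapdh and 0.078 for Pgam1) and without WT dLN replicate 3 (0.059 for Gapdh and 0.078 for Pgam1), and that of Pgam1 also without WT dLN replicate 1 (0.068).

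The lactate exporter Slc16a3 had 41.3, 56.7, 32.3 and 45.5 scaled CPM in cKO CNS libraries and 3.64, 8.08, 3.1 and 4.02 in cKO dLN libraries. The WT values were 22.4, 39.4 and 38 in CNS and 6.63, 4.54 and 2.31 in dLN libraries. The tissues were far apart in both genotypes, with log2 fold changes of 3.23 ± 0.32 in cKO and 2.87 ± 0.38 in WT cells. Slc16a1 was not called, and Slc16a3 made up 85.3% of the per-kilobase level of both carriers in cKO CNS and 37.0% in cKO dLN cells, and 81.8% in WT CNS and 27.6% in WT dLN cells. Slc2a1 was higher by 1.04 ± 0.23 in the cKO and 1.02 ± 0.27 in the WT, and Slc2a3 was called higher in both. The WT call of Slc2a1 was lost without WT CNS replicate 2 (edgeR adjusted p = 0.075) and without WT dLN replicate 1 (0.096).

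The regulators split. Pfkfb4 was higher in CNS cells by 1.78 ± 0.38 in the cKO and 3.00 ± 0.53 in the WT, and Pfkfb3 by 0.94 ± 0.26 in the WT, a call lost without WT CNS replicate 1 or 2 or without WT dLN replicate 1 or 2 (edgeR adjusted p = 0.073 to 0.097). Pdk1 had 19.4, 23, 17.2 and 14.5 scaled CPM in cKO CNS libraries and 52.6, 63.4, 70.9 and 35.3 in cKO dLN libraries, against 16.1, 23.3 and 18.3 in WT CNS and 26.2, 23 and 32.3 in WT dLN libraries. It was lower in CNS cells of the cKO (-1.58 ± 0.21, edgeR adjusted p = 4.0e-05), and in the WT the ranges overlapped (-0.50 ± 0.25, edgeR adjusted p = 0.2). The highest Pdk1 values were those of the cKO dLN libraries.

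In the HIF group, Hif1a had 117, 234, 93.6 and 154 scaled CPM in cKO CNS libraries and 43.7, 35, 36 and 61.7 in cKO dLN libraries. In the WT it had 137, 188 and 199.8 in CNS and 45, 62.6 and 63.8 in dLN libraries. CNS values were higher in every library of both genotypes, by 1.76 ± 0.27 in the cKO (edgeR adjusted p = 1.1e-04) and 1.62 ± 0.30 in the WT (0.0019). P4ha1 had 28.4, 32.8, 24.3 and 30.0 scaled CPM in cKO CNS and 15.4, 14.1, 12.9 and 6.32 in cKO dLN libraries, beside 25.2, 25.4 and 23.6 in WT CNS and 4.69, 6.48 and 4.62 in WT dLN libraries, with log2 fold changes of 1.24 ± 0.21 in cKO and 2.23 ± 0.27 in WT cells. Bnip3 was higher in CNS cells by 1.95 ± 0.45 in the cKO and 2.08 ± 0.54 in the WT, Ndrg1 by 1.23 ± 0.42 in the cKO and 2.13 ± 0.52 in the WT, and Egln3 by 1.42 ± 0.28 in the cKO and 1.09 ± 0.30 in the WT. The cKO call of Ndrg1 was lost without cKO CNS replicate 2 and without cKO dLN replicate 2, 3 or 4 (edgeR adjusted p = 0.054 to 0.092), and its WT call without WT CNS replicate 3 or WT dLN replicate 1 (0.050 and 0.055). The WT call of Bnip3 was lost without WT CNS replicate 2 or WT dLN replicate 1 or 3 (0.058 to 0.083), and that of Egln3 in each fit that left out 1 library except WT CNS replicate 1 (0.060 to 0.083).

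Ak4 was at 0 in all 7 dLN libraries. It had 0.97, 3.1, 0.87 and 1.69 scaled CPM in cKO CNS and 0.29, 2.62 and 1.65 in WT CNS libraries, so that it was at least 7.86-fold higher in the CNS in the cKO and at least 5.15-fold in the WT, against a floor of 3 counts over the dLN group. The WT call was lost in each fit that left out 1 library except WT CNS replicate 1 (edgeR adjusted p = 0.082 to 0.11). Fam162a and Wsb1 were higher in CNS cells of both genotypes, Ankrd37 in the WT (1.60 ± 0.29), and Higd1a, Ero1l and Hilpda in the cKO. The WT call of Fam162a was lost without WT CNS replicate 2 or 3 or WT dLN replicate 1 (edgeR adjusted p = 0.050 to 0.090), and that of Ero1l without cKO CNS replicate 4 or cKO dLN replicate 2 (0.057 and 0.073). Gbe1 went the other way in both, with 6.62, 6.35, 5.35 and 5.73 scaled CPM in cKO CNS and 10.7, 9.87, 8.44 and 9.19 in cKO dLN libraries, and 6.43, 5.7 and 5.12 in WT CNS and 10.8, 8.43 and 10.7 in WT dLN libraries. On the TMM scale Gbe1 was lower in CNS cells without overlap. Its log2 fold changes were -0.67 ± 0.16 in the cKO and -0.79 ± 0.19 in the WT, and Kdm3a was lower in the cKO (-0.66 ± 0.18). Without TMM every log2 fold change of CNS against dLN shifts by 0.64 in the cKO and 0.37 in the WT. This shift nearly cancels the cKO differences of Gbe1 and Kdm3a, although no called member changed sign. Both Gbe1 calls were lost without the filter on low counts (edgeR adjusted p = 0.056 in the cKO and 0.088 in the WT). Egln1, Bnip3l, Narf, Plod2 and Mxi1 were not called.

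**Figure D3:**
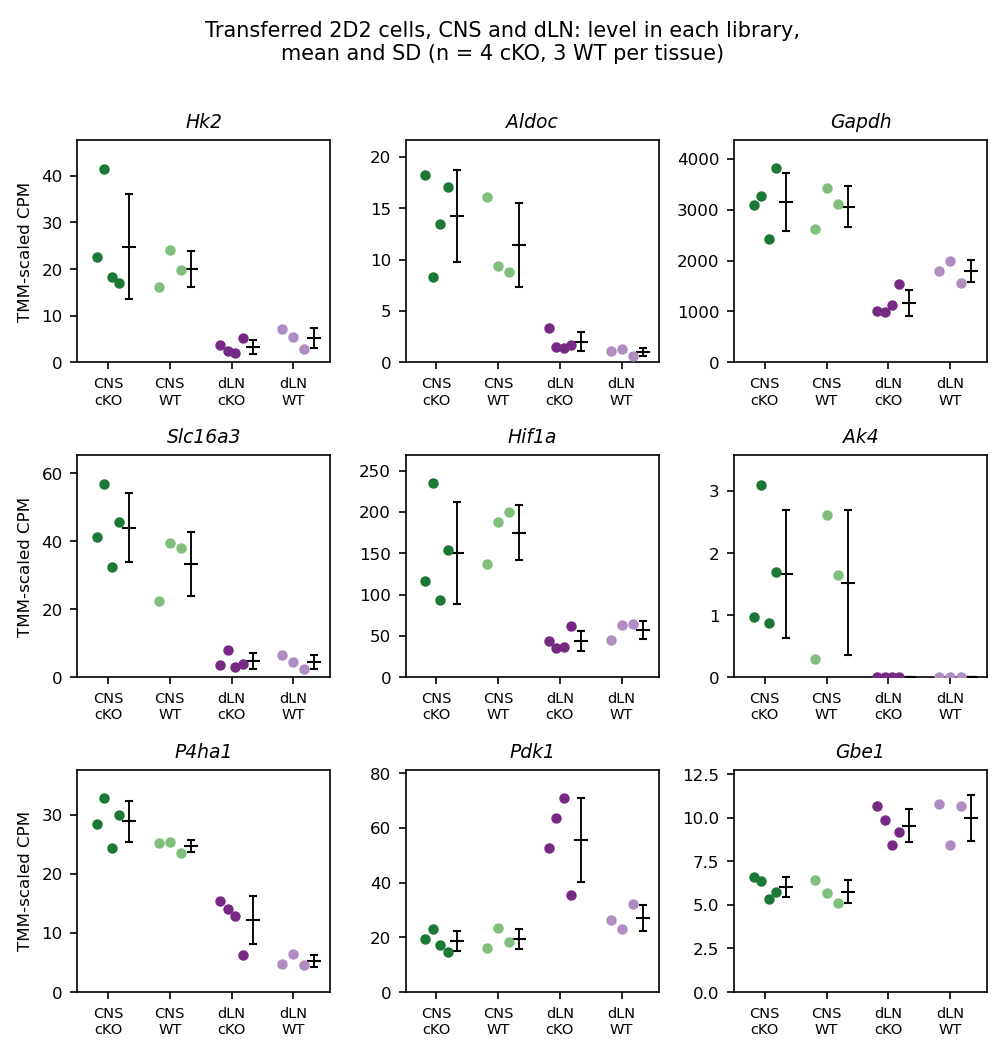
Levels of 9 of the 43 genes in the Chd1 libraries, in scaled CPM of the joint scaling on axes that start at 0. Points are libraries, and the mark with a bar beside them is the group mean with its SD; the groups run cKO CNS, WT CNS, cKO dLN and WT dLN from left to right. CNS points lie above dLN points for Hk2, Aldoc, Gapdh, Slc16a3, Hif1a, Ak4 and P4ha1, while for Gbe1 they lie below.

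Markers of other cells moved with tissue. The summed level of 15 microglia and macrophage markers, all detected, was 4487 to 9195 scaled CPM in cKO CNS and 4807 to 6170 in WT CNS libraries, against 159 to 240 in cKO dLN and 143 to 247 in WT dLN libraries. T cell markers summed to 14313 to 34566 in cKO CNS and 27206 to 34564 in WT CNS libraries, against 8586 to 18915 in cKO dLN and 22779 to 25843 in WT dLN libraries. CD8 T cell markers summed to 18.5 to 29.1 in cKO CNS and 130 to 605 in cKO dLN libraries. In the WT they summed to 22.8 to 27.0 in CNS and 14.6 to 23.5 in dLN libraries. Astrocyte markers summed to 5.35 to 9.15 in cKO CNS and 0.26 to 0.90 in cKO dLN libraries. In the WT they summed to 4.24 to 10.2 in CNS libraries and 0 in dLN libraries. The part of other cells in the tissue differences was not tested. Among further genes, Hk3, a hexokinase of myeloid cells, was higher in CNS cells by 5.71 ± 0.68 in the cKO and 4.79 ± 0.98 in the WT. Ldhb, the heart-type lactate dehydrogenase, was higher by 3.04 ± 0.25 in the cKO and 3.77 ± 0.31 in the WT, and the haem oxygenase Hmox1 by 4.00 ± 0.38 in the cKO and 2.63 ± 0.38 in the WT. Of 19 further HIF targets tested, 10 were higher and 3 lower in the cKO and 5 higher and none lower in the WT, beside 24.6% higher and 22.7% lower of all genes in the cKO and 11.8% and 4.93% in the WT. Of 7 pentose phosphate genes tested, 4 were higher in the cKO and 2 in the WT, to be read against the same shares, with Taldo1 higher by 0.64 ± 0.12 in the cKO and 0.44 ± 0.13 in the WT.

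Within the dLN, Chd1 cKO cells were set against WT cells. No member was called by edgeR, where 0.0714% of all genes tested were called (0.0306% higher and 0.0408% lower), although 16 of 35 tested members had an unadjusted p under 0.05, beside 20.1% of all genes, and DESeq2 called 6, beside 3.93% of all genes. The glycolysis group had a median log2 fold change of -0.34, with 16 of 20 tested genes on the negative side and 12 of the 20 at an unadjusted p under 0.05, against medians of -0.08 in the HIF group and 0.02 over all genes tested. Gapdh had 838, 809, 948 and 1283 scaled CPM in cKO dLN libraries and 1517, 1702 and 1293 in WT dLN libraries, on the scaling of the dLN set. The lowest WT value was close to that of cKO library 4, which stood above its 3 partners (-0.63 ± 0.17, edgeR adjusted p = 0.11). Ldha had 591, 500.1, 549 and 739 scaled CPM in cKO and 835, 1020.0 and 722 in WT libraries, an overlap that also rests on cKO library 4 (-0.53 ± 0.16, edgeR adjusted p = 0.13).

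Tpi1 was the furthest on the negative side, at -0.85 ± 0.24 (edgeR adjusted p = 0.11), and Pgk1, the first ATP-making enzyme of the pathway, stood at -0.56 ± 0.15 (0.11). On the positive side were Pdk1 and P4ha1. Pdk1 had 43.6, 52.4, 59.2 and 29.6 scaled CPM in cKO and 22.1, 19.6 and 26.8 in WT libraries, which did not overlap (1.01 ± 0.23, edgeR adjusted p = 0.084), and P4ha1 was at 1.20 ± 0.32 (0.11). Without cKO dLN replicate 4, edgeR called 990 of 9696 genes tested and 9 of 34 members tested. Of these members Slc2a3, Tpi1, Gapdh, Pgk1, Pgam1, Pkm and Ldha were lower, and Pdk1 and P4ha1 higher. The directions of the 990 are not given here. Cell markers moved with genotype in this tissue: CD8 T cell markers summed to 109 to 500 scaled CPM in cKO and 12.4 to 19.7 in WT libraries, with cKO library 4 the lowest of the cKO. T cell markers summed to 7096 to 15844 in cKO and 19428 to 21394 in WT libraries. Of these 10 markers, 7 had a positive log2 fold change and 3 a negative one, with a median of 0.18. Th17 markers summed to 6.58 to 14.4 scaled CPM in cKO and 10.3 to 13.5 in WT libraries. Of the 7 Th17 markers, 6 were detected in cKO and 4 in WT libraries, and Il17a was at 0 in both groups. The part of these cell types in the differences was not tested.

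**Figure D4:**
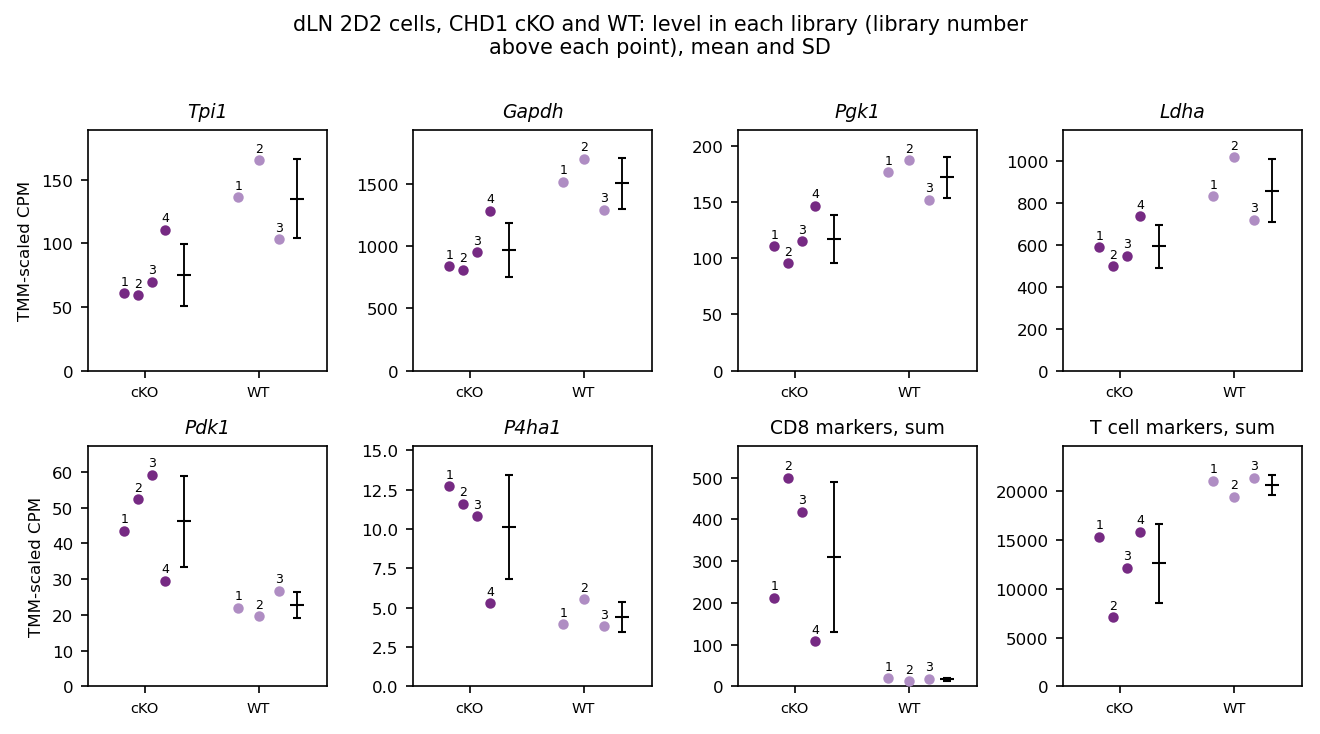
Levels of 6 of the genes and the summed levels of CD8 T cell and T cell markers in the dLN libraries, in scaled CPM on axes that start at 0. Points are libraries, numbered by replicate, and the mark with a bar is the group mean with its SD, with Chd1 cKO left of WT. In cKO library 4, Gapdh and Ldha lie nearer to the WT values and the CD8 marker sum is the lowest of the cKO.

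In the CNS, none of 42 tested members was called between Chd1 cKO and WT cells by edgeR or by DESeq2, and 0.00896% of all genes tested were called by edgeR. An unadjusted p under 0.05 was found for 3 of the 42 and 11.9% of all genes tested. Log2 fold changes ran from -0.54 ± 0.16 for Slc2a3 to 0.44 ± 0.14 for Higd1a, with medians of 0.06 in the glycolysis group and -0.04 in the HIF group. Hk2 had 27.1, 49.8, 22 and 20.3 scaled CPM in cKO and 19.5, 28.9 and 23.8 in WT libraries, and Hif1a had 139.8, 282, 112 and 184 in cKO and 165, 226 and 241 in WT libraries. Both genes overlapped between the genotypes. B cell markers summed to 105 to 527 scaled CPM in cKO and 45.0 to 73.9 in WT libraries. All 15 microglia and macrophage markers had a positive log2 fold change, with a median of 0.58, and summed to 5372 to 11008 scaled CPM in cKO and 5774 to 7411 in WT libraries. All 10 T cell markers had a negative one, with a median of -0.27, and summed to 17225 to 41319 in cKO and 32759.9 to 41515 in WT libraries. Dendritic cell markers summed to 78.8 to 120 in cKO and 50.8 to 77.1 in WT libraries, and erythroid transcripts to 0.69 to 586 in cKO libraries and 0 in each WT library. The part of these cells in the comparison was not tested. The difference between the CNS and dLN effects of the cKO was called for none of 41 members by edgeR (0.112% of all genes called, 0.0431% higher and 0.069% lower). An unadjusted p under 0.05 was found for 11 of the 41 and 18.9% of all genes, and DESeq2 called 7, beside 5.06% of all genes. The largest were Tpi1 at 1.03 ± 0.29 (edgeR adjusted p = 0.1) and Pdk1 at -1.08 ± 0.33 (0.11).

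Loss of the glucocorticoid receptor was likewise without a call among these genes. None of 40 tested members was called between GR cKO and GR WT cells of the CNS by edgeR or by DESeq2, and 0% of all genes tested were called by edgeR. An unadjusted p under 0.05 was found for 5 of the 40 and 11% of all genes tested. Log2 fold changes ran from -0.49 ± 0.22 for Egln1 to 0.55 ± 0.16 for Hilpda (edgeR adjusted p = 0.29). Hilpda had 51.3, 47.8, 42.8 and 44.1 scaled CPM in GR cKO and 37.3, 22.3, 36.6 and 30.9 in GR WT libraries, without overlap. Gapdh had 2766, 2928, 1853 and 2789 scaled CPM in GR cKO and 2653, 2232, 2602 and 3008 in GR WT libraries, and Hk2 had 33.8, 33.3, 14.2 and 21.5 in GR cKO and 12, 20.9, 17.3 and 30.0 in GR WT libraries. Both overlapped, and cKO library 7 was the lowest of its group for each. Microglia and macrophage markers summed to 7976 to 17148 scaled CPM in GR cKO and 3625 to 11436 in GR WT libraries, and B cell markers to 104 to 984 in GR cKO and 57.2 to 96.8 in GR WT libraries. All 10 T cell markers had a negative log2 fold change, and summed to 17454 to 23005 in GR cKO and 21242 to 30845 in GR WT libraries. The part of these cells in the comparison was not tested.

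**Figure D5:**
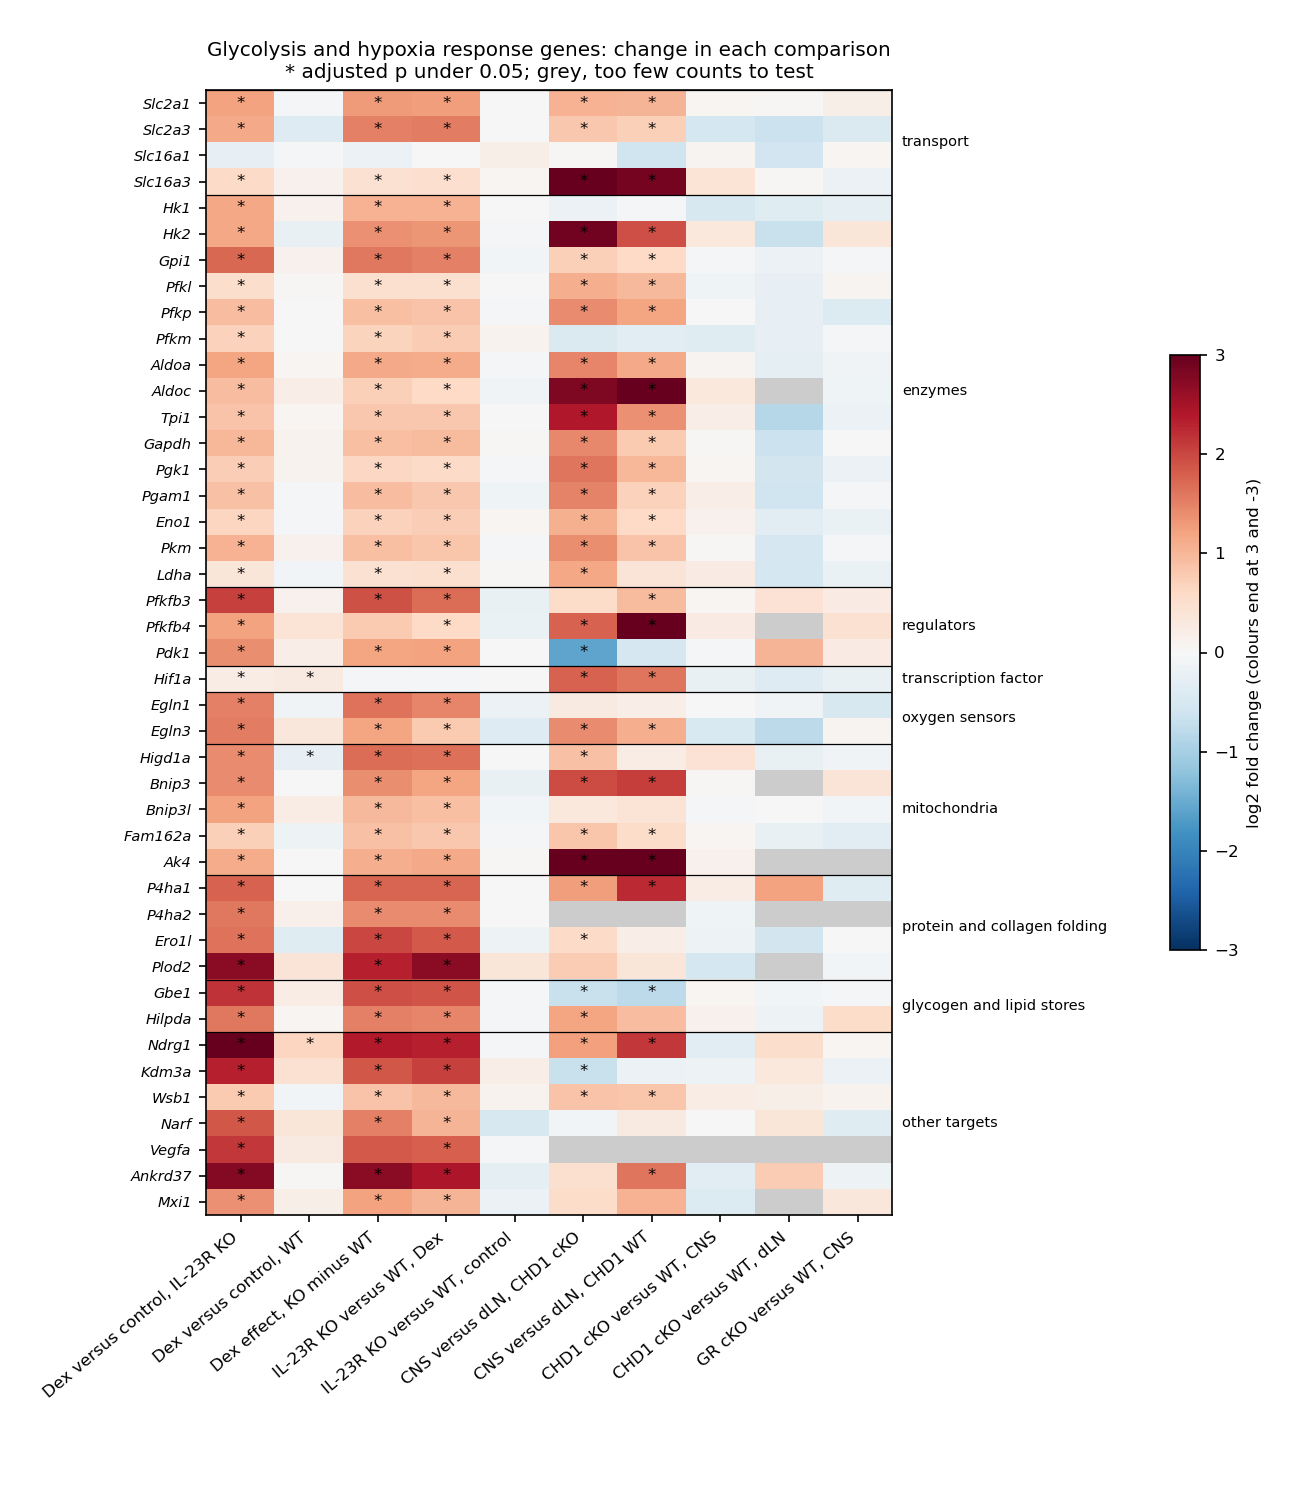
Log2 fold change of the 43 genes (rows, by role) in 10 comparisons (columns), with colours ending at 3 and -3, asterisks for an edgeR adjusted p under 0.05 and grey where counts were too low to test. The columns for Dex in IL-23R KO cells are called nearly throughout (Ldha and Hif1a on the TMM scale only), those for CNS against dLN in most enzymes, and those for Chd1 cKO, GR cKO and KO against WT control cells in no row.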

How the data were processed

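Bulk RNA-seq of Th17 cells was analysed from 4 count tables. The deposited values are expected counts per gene made by the authors with RSEM 1.3.3 on mm10, per the submitters' processing notes, and are whole numbers in the deposited tables. The aligner, the annotation, the rounding and the strand setting are not given in the sources used here. Reads carry no molecular identifiers, so counting intervals and floors cover counting error only. One further HIF target is not reported here. The members and all gene lists were chosen with earlier results of these data known.

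Each set was fitted with edgeR 4.0.16 in R 4.3.3: the filterByExpr filter (minimum count 10, minimum total 15), TMM scaling, a group-mean design without covariates and the quasi-likelihood test, with Benjamini-Hochberg adjustment over all genes tested and calls at adjusted p under 0.05. The Chd1 CNS, Chd1 dLN, GR and in vitro tables had a fit each (the last with its 4 groups in 1 fit), and both Chd1 tables were joined for the tissue comparisons. Standard errors were derived from the log2 fold change and the F statistic. The fits were tested on simulated data. Levels are CPM of TMM-scaled library totals, and levels between genes are compared only per kilobase of exon from GENCODE M21, which held 30464 of the 31053 symbols. Any of the 43 genes may be named. Values in every library are given for a panel of 10 genes (Slc2a1, Hk2, Gapdh, Ldha, Pfkfb3, Pdk1, Bnip3, Egln3, Vegfa and Hif1a) and for up to 6 called genes per direction with the largest log2 fold change. Alternatives were DESeq2 1.42.0, its size factors in edgeR, no filter, a mean of at least 10 CPM, removal of repeat and ribosomal RNA features, a replicate block, fits of single comparisons and leaving out each replicate. No 2 libraries agreed within sampling noise over 54 pairs within groups (lowest chi-square per degree of freedom 3.74).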

Additional observations from a re-analysis of the deposited data

Results flagged for a closer look

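In 9 of 142 groups of 4 libraries the library farthest out stood apart from the rest by Dixon's criterion, where chance gives about 1 in 20. Hk2 had 141 scaled CPM in KO Dex library 6, against 87.8 to 89.8 in its 3 partners. The summed HIF group had 10936 scaled CPM in KO Dex library 8, against 10332 to 10425 in the others. Ndrg1 had 140 scaled CPM in WT Dex library 2, against 178 to 180 in the others, and Ero1l 345 in WT control library 2, against 417 to 431. Gapdh had 1853 scaled CPM in GR cKO library 7, against 2766 to 2928 in the others. Slc2a1 had 17.4 scaled CPM in GR WT library 4, against 10.5 to 11.1 in the others, and the summed HIF group 636 in GR WT library 2, against 699 to 711. Aldoc had 3.38 scaled CPM (joint scaling) in Chd1 cKO dLN library 1, against 1.41 to 1.72 in the others, and Vegfa 0.240 in Chd1 cKO dLN library 4 and 0 in its partners.

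The Dex effect differed between KO and WT cells, by the interaction test, for 39 of the 43 genes. Among the genes shown library by library, the interaction (KO effect minus WT effect, log2 scale, edgeR adjusted p under 0.05) was 2.72 for Ankrd37, 2.39 for Ndrg1, 2.34 for Plod2 and 1.99 for Ero1l. It was 1.94 for Gbe1, 1.92 for Pfkfb3, 1.40 for Bnip3, 1.37 for Hk2 and 1.27 for Slc2a1. It was 1.19 for Pdk1, 1.18 for Egln3, 0.90 for Gapdh and 0.45 for Ldha.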

How the results depend on the processing

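No result changed sign as a call under any alternative fit. Over all members and settings, 6697 values kept their side of the threshold, 59 passed it newly and 82 no longer did. The direction of genes not called in the main fit was not compared. The 42 calls for Dex in KO cells were 40 to 42 under every alternative, those of KO Dex against WT Dex 39 to 41, those of the interaction 37 to 40, and those of CNS against dLN 26 to 32 in the cKO and 19 to 28 in the WT. For Chd1 cKO against WT in the dLN, 0 members were called by edgeR, 6 by DESeq2, 4 without the filter on low counts, 8 with a replicate block, 2 in the joint fit, and 0 to 9 with 1 library left out (9 without cKO replicate 4). No WT dLN library is numbered 4, so the replicate block sets cKO library 4 aside. It is thus nearly the same exclusion as leaving that library out. For the Chd1 by tissue difference the 0 calls became 7 with DESeq2 and 0 to 7 with 1 library left out (7 without cKO dLN replicate 4). For Dex in WT cells the 3 calls became 5 when only the 8 libraries compared were fitted and 1 to 2 with 1 of them left out (1 without WT control replicate 2). The causes were not tested.

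Over all genes, counts of calls moved by more than 1.5 times: in the Chd1 CNS comparison the 1 call became 178 with DESeq2, 72 without the filter and 3 with the replicate block or in the joint fit. In the dLN the 7 calls became 385, 511, 613 and 192 in the same order of settings, the 613 with the block that sets cKO library 4 aside. In the GR comparison 0 became 122 with DESeq2 and 4 without the filter, in the Chd1 by tissue difference 13 became 586 and 172, and between KO and WT control cells 74 became 122 with DESeq2. The Chd1 by tissue difference also had 7 calls with DESeq2 size factors, 95 at a mean of at least 10 CPM and 52 with the replicate block, and between KO and WT control cells there were 42 when only the 8 libraries compared were fitted. At a mean of at least 10 CPM, where fewer genes were tested, the 5480 calls for CNS against dLN in the cKO became 3418 and the 1938 in the WT 1225. With 1 library left out, the calls ran from 531 to 829 for Dex in WT cells, against 874, with the fewest without WT control replicate 2 and 571 without WT Dex replicate 3. They ran from 26 to 77 between KO and WT control cells, with 26 without KO control replicate 8, 34 without KO control replicate 6 and 45 without WT control replicate 1 or 4. For the Chd1 by tissue difference they ran from 0 to 648, with 648 without cKO dLN replicate 4, and in the dLN from 0 to 990, with 990 without the same library. They ran from 0 to 2 for Chd1 in the CNS and for GR. Same-numbered libraries did not deviate together (21 correlations between -0.08 and 0.11). Pairing by number was thus not seen, but groups of so few libraries cannot exclude it. With a replicate block the members called were 42 for Dex in KO cells, 3 for Dex in WT cells, 40 for the interaction, 31 and 24 for CNS against dLN in the cKO and WT, and 0 for Chd1 in the CNS and for the Chd1 by tissue difference. No paired analysis was possible for GR cKO against WT or for KO against WT because those groups share no replicate numbers. Depth limits Vegfa, P4ha2, Plod2 and Ak4 in vivo, which had few or no counts.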
